A study of Arabidopsis thaliana with 24 samples.

Results

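The comparison described here set 3 arrays of dark-grown csn3-1 seedlings against 3 arrays of dark-grown csn4-1 seedlings, 6 of the 24 arrays of a study of Arabidopsis thaliana mutants. The arrays were chosen by their labels alone. Both lines carry a mutation in a gene for a subunit of the COP9 signalosome, and the question was which transcripts differ between mutants of different subunits of 1 complex. The other groups, used here for values set beside this pair, were wild type (WT) and a line labelled csn5 (csn5a-2 csn5b), a double mutant in the paired CSN5A and CSN5B genes. Every genotype had 3 arrays from darkness and 3 from light. All seedlings were 7 days old, and about 80 mg of seedlings was extracted per sample. The study's design text calls the 3 samples of a group independent biological replicates. Of the csn3-1 dark arrays, 2 titles carry replicate number 1, and the second of these is called 1b. The labels used here name no batch, background accession, medium or light intensity.

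The COP9 signalosome strips NEDD8, a small modifier related to ubiquitin, off the cullin subunits of ubiquitin ligases, and so keeps these ligases cycling. In Arabidopsis, loss of most single subunits destabilises the whole complex, and the mutants show light-grown features in darkness and die as seedlings. Mutants of different subunits are therefore often treated as equivalent.

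The measurements were MAS5 signals of Affymetrix ATH1 arrays, brought here to a common trimmed mean. Of 22746 probe sets other than controls, 18751 that reached 100 on that scale in 3 or more arrays were tested, and 10616 of these are listed with 1 gene. Between 62.6% and 75.9% of probe sets reached a signal of 100 in each of the 6 arrays. Correlations of log2 signals ran from 0.922 to 0.939 within csn3-1 dark and from 0.918 to 0.935 within csn4-1 dark. Array csn3-1 1b correlated with the csn5-labelled dark arrays at 0.963 to 0.965 and with csn3-1 dark arrays 1 and 2 at 0.928 and 0.939. Arrays 1 and 2 correlated with each other at 0.922. A closer match to the csn5-labelled dark arrays than to its own group was not particular to 1b. Array csn3-1 1 correlated with the csn5-labelled dark arrays at 0.931 to 0.936. Array 1b also had the lowest median signal of the 6 arrays (181.6), whereas csn4-1 replicate 3 had the highest (247.6). The ratio of 3' to 5' GAPDH control probe sets, a measure of RNA integrity, was 24.6, 19.3 and 7.74 in csn3-1 arrays 1, 2 and 1b and 15.7, 14.4 and 27.5 in csn4-1 arrays 1, 2 and 3, and its part in the results was not tested beyond a covariate fit. Counts of calls are given with and without csn3-1 array 1b and csn4-1 replicate 3. The values without these arrays of named genes that then lost their call are given below, singly or as ranges.

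The mutated genes themselves could not be checked, because CSN3 and CSN4 are unnamed in the annotation used here. CSN5B, which encodes a copy of the catalytic subunit, is the only subunit gene named there with a probe set of its own. Its signal was 230, 235 and 188 in csn3-1 dark arrays 1, 2 and 1b and 206, 247 and 146 in csn4-1 arrays 1, 2 and 3. The groups overlapped, and the log2 difference was 0.12 ± 0.20 (SE). In the csn5-labelled dark arrays the same probe set gave 1790, 1897 and 1573, so array 1b did not show the CSN5B level of that line. WT dark arrays gave 124, 118 and 177. The csn5-labelled line, though labelled a mutant of that gene, was thus above WT, by a log2 difference of 3.26. The reason was not tested.

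Few probe sets passed the test between the lines in darkness, which had 3 arrays a group. A probe set was called where the limma adjusted p was under 0.05 and the log2 difference of group means was at least 1 in size. By that rule 84 probe sets (0.448% of those tested) were called, 43 of them higher in csn3-1 (0.229%) and 41 lower (0.219%). Called or not, 94 of all probe sets tested had a log2 difference of at least 1 and 286 one of -1 or below. The split was 88 higher and 42 lower after quantile normalization, and 70 and 20 with arrays centred on their medians. By the adjusted p alone there were 141 (0.752%), 74 higher and 67 lower. At an unadjusted p under 0.05 there were 2589, or 13.8%. In all 84 the 3 csn3-1 arrays and the 3 csn4-1 arrays did not overlap, which was also true of 13.6% of all probe sets tested. The median log2 difference over all probe sets was -0.06, and log2 differences are on the scale of log2(signal + 50), which understates the change of dim probe sets. Of the 84, 45 are listed with 1 gene, 27 of them higher and 18 lower, and 39 are unnamed here. In RNA of whole seedlings, fewer cells of a type and less RNA per cell cannot be told apart.

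Of the transcripts higher in csn3-1, 6 were those of genes listed as induced by low oxygen. AT4G33560, of the wound-response family and a member of that low-oxygen set, had signals of 834, 1222 and 2059 in csn3-1 arrays 1, 2 and 1b and of 238, 500 and 116 in csn4-1 arrays 1, 2 and 3. Its log2 difference of 2.17 ± 0.35 was the largest among named genes (limma adjusted p = 0.00209). WT dark arrays lay between 110 and 262, overlapping csn4-1, and csn5-labelled arrays between 1059 and 1459, within that of csn3-1. AT5G66985, which encodes a small protein of the same low-oxygen set, gave 655, 1557 and 2317 in csn3-1 and 313, 375 and 308 in csn4-1. It was higher by 1.87 ± 0.32 (limma adjusted p = 0.00417), and all WT arrays (390 to 541) fell between the lines. For both genes array 1 was the lowest of csn3-1 and array 1b the highest, and the lines did not overlap.

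CML38, a calmodulin-like calcium sensor, was dim in every dark group. It gave 142, 243 and 225 in csn3-1 and 56.1, 8.8 and 96.6 in csn4-1, a log2 difference of 1.36 ± 0.30 (limma adjusted p = 0.0243). The lines did not overlap, and WT dark arrays (86.7 to 110) lay below csn3-1. AT2G17850, of the rhodanese family, gave 568, 462 and 1157 in csn3-1 and 224, 281 and 204 in csn4-1, a log2 difference of 1.35 ± 0.30 (limma adjusted p = 0.0257). Array 1b was the highest of the 6 for that gene, and the lines did not overlap. AT3G03270, a universal stress protein known as HRU1 that acts in signalling under low oxygen, gave 1541, 2771 and 3365 against 860, 1301 and 792, a log2 difference of 1.30 ± 0.31 (limma adjusted p = 0.0414). AT4G27450, another low-oxygen gene, gave 3557, 4997 and 6899 against 2322, 2740 and 1781, a log2 difference of 1.13 ± 0.21. Its WT dark arrays, at 9523 to 11892, lay above both lines.

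Of 24 tested genes of the low-oxygen list, these 6 were called higher in csn3-1, 0 were called lower and 18 did not pass, beside 0.229% of all probe sets called higher. The median log2 difference of the 24 was 0.41, with 21 of them above 0, while the median over all probe sets was -0.06 with 42.7% above 0. AT4G10270, a wound-response family gene, lay just outside the threshold with a log2 difference of 1.20 ± 0.30 and a limma adjusted p of 0.0519, as did AT4G24110 with 1.003 ± 0.25 and an adjusted p of 0.0534. PDC2, a pyruvate decarboxylase of ethanol fermentation, had a log2 difference of 0.63 ± 0.27 (limma adjusted p = 0.286). The lowest member, AT2G15880, had a difference of -0.79. The summed signal of the 24 genes was 17650, 22900 and 30278 in csn3-1 arrays 1, 2 and 1b, and 12316, 16127 and 11355 in csn4-1 arrays 1, 2 and 3. These groups did not overlap, but the sums, like the median above, include the 6 genes called from these same arrays. Their separation is thus no support apart from those calls. The WT sums, at 38959 to 48757, were higher than those of both lines, and they are carried by a few bright genes. The mean log2 signal of the 24 genes, which weights them equally, was 9.08 to 9.28 in WT, 9.10 to 9.68 in csn3-1 and 8.68 to 8.88 in csn4-1, so that WT overlapped csn3-1 and lay above csn4-1.

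The low-oxygen calls moved with single arrays. Without csn3-1 array 1b, 2 of the 24 genes were called higher (AT4G33560 and AT5G66985), and without csn4-1 replicate 3, 3 were (those and CML38). Without csn4-1 replicate 1 the count was also 3, and without both 1b and csn4-1 replicate 3 it was 1 (CML38). In that last fit AT4G33560 had a log2 difference of 1.41 (limma adjusted p = 0.075) and AT5G66985 1.44 (limma adjusted p = 0.0791). In a fit of the 6 arrays alone 0 of the 24 were called. The difference was above 0 for each of the 6 genes in every one of these fits.

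**Figure D1:**
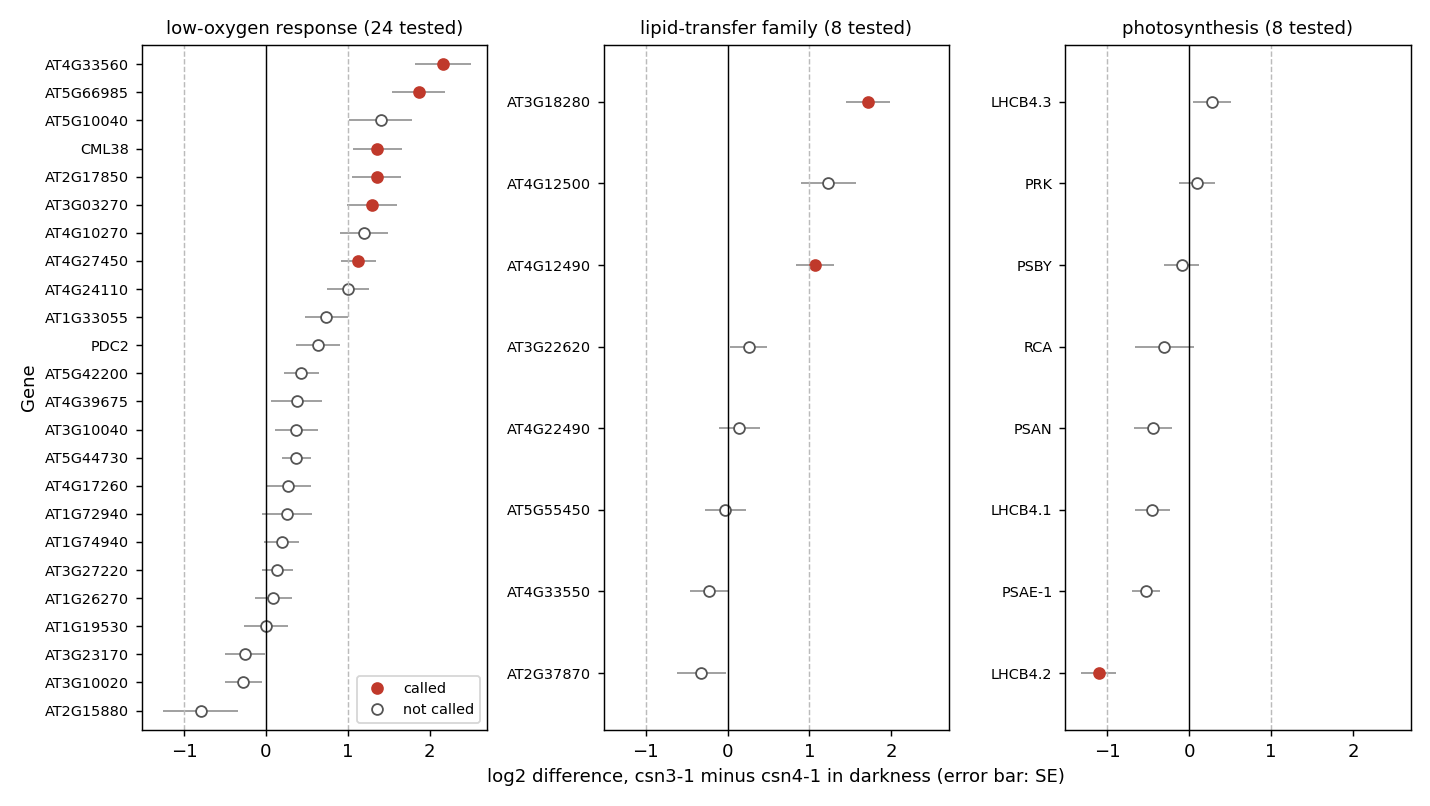
Log2 differences, csn3-1 minus csn4-1 in darkness, of all tested members of 3 gene lists (horizontal axis, log2 units; error bars are SE of the limma fit), 1 gene per line, with dashed lines at -1 and 1. Filled points passed the calling rule, as did 6 of 24 low-oxygen genes, 2 of 8 lipid-transfer genes and 1 of 8 photosynthesis genes, the last lower in csn3-1.

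Genes of the lipid-transfer family, small secreted proteins that bind lipids, were called in both directions. AT3G18280 had signals of 5732, 6712 and 13635 in csn3-1 arrays 1, 2 and 1b and 2665, 3331 and 1580 in csn4-1 arrays 1, 2 and 3, a log2 difference of 1.72 ± 0.27 (limma adjusted p = 0.00193). Its WT dark arrays, at 5333 to 10334, were also above csn4-1. AT4G12490 gave 19888, 19187 and 25286 against 13206, 8269 and 9520, a log2 difference of 1.07 ± 0.23 (limma adjusted p = 0.0244), and both lines were far above WT (56.9 to 198). AT5G01870 was higher by 1.24 ± 0.26. AT5G48490 went the other way, with 214, 290 and 321 in csn3-1 and 1085, 770 and 791 in csn4-1, a log2 difference of -1.52 ± 0.32 (limma adjusted p = 0.0185). WT dark arrays (154 to 304) lay with csn3-1 for AT5G48490. AT2G10940 was lower by a log2 difference of -1.04 ± 0.23. In the list of 8 tested lipid-transfer genes, which does not hold the last 3 genes named, 2 were called higher, 0 lower and 6 did not pass, with a median log2 difference of 0.20. AT4G12500 of that list had 1.23 ± 0.34 and a limma adjusted p of 0.0781. Neither AT4G12490 nor AT5G01870 passed without array 1b (log2 differences of 0.94 and 1.01) or without csn4-1 replicate 3 (1.02 and 0.995), and AT2G10940 did not pass without the latter (-0.98).

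The remaining named genes that were highest in csn3-1 belonged to different processes. AT2G47780, of the family of small rubber particle and lipid droplet-associated proteins, gave 1684, 2020 and 3142 in csn3-1 arrays 1, 2 and 1b and 578, 664 and 824 in csn4-1 arrays 1, 2 and 3. The log2 difference was 1.62 ± 0.21 (limma adjusted p = 0.000156), and it was called in each of the 40 alternative fits. WT dark arrays of AT2G47780 lay between 3248 and 3340, above both lines. AT1G73040, a jacalin-type lectin, gave 289, 327 and 278 against 154, 101 and 13.4, and AT3G48600 gave 176, 169 and 154 against 11.7, 15.8 and 86.9. These differences were 1.48 ± 0.31 and 1.39 ± 0.33. In both genes the csn3-1 arrays lay close together and the csn4-1 arrays were scattered. AT1G73040 did not pass without csn4-1 replicate 3 (0.99) or without csn3-1 array 2. AT3G48600 did not pass without array 1b (1.44). With each of the 6 arrays left out in turn it passed in 1 fit, that without csn4-1 replicate 3.

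APL3, a large subunit of ADP-glucose pyrophosphorylase in starch synthesis, had signals of 259, 181 and 244 in csn3-1 and 9.2, 65.2 and 135 in csn4-1, a log2 difference of 1.35 ± 0.29 (limma adjusted p = 0.0215). AT1G73120 gave 987, 793 and 1678 against 330, 661 and 300, a log2 difference of 1.33 ± 0.25, while WT dark arrays were between 9590 and 10971. Both lines were thus far below WT in that gene, csn4-1 the lower. AT4G30650, of a family of small membrane proteins responsive to low temperature and salt, was higher by 1.31 ± 0.26, AT3G05730, of the defensin-like family, by 1.21 ± 0.30, AT4G32750 by 1.24 ± 0.30 and AT3G14280 by 1.20 ± 0.28. ICL, isocitrate lyase of the glyoxylate cycle that turns stored oil into sugar, gave 8292, 13146 and 11829 against 4737, 5581 and 4578, a log2 difference of 1.13 ± 0.27 (limma adjusted p = 0.0414). NRPB6B, a subunit of RNA polymerases, had a difference of 1.09 ± 0.18, and AT4G01700, of the chitinase family, one of 1.11 ± 0.22. These last 3 genes were chosen after their values were seen. Without array 1b, 7 genes of this paragraph did not pass besides ICL (1.07), with log2 differences from 0.83 (AT4G01700) to 1.32 (AT4G32750). Without csn4-1 replicate 3, AT1G73120, AT4G32750, AT3G05730, AT3G14280, ICL, AT4G01700 and NRPB6B did not pass, with differences from 0.90 (AT4G01700) to 1.18 (AT4G32750).

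**Figure D2:**
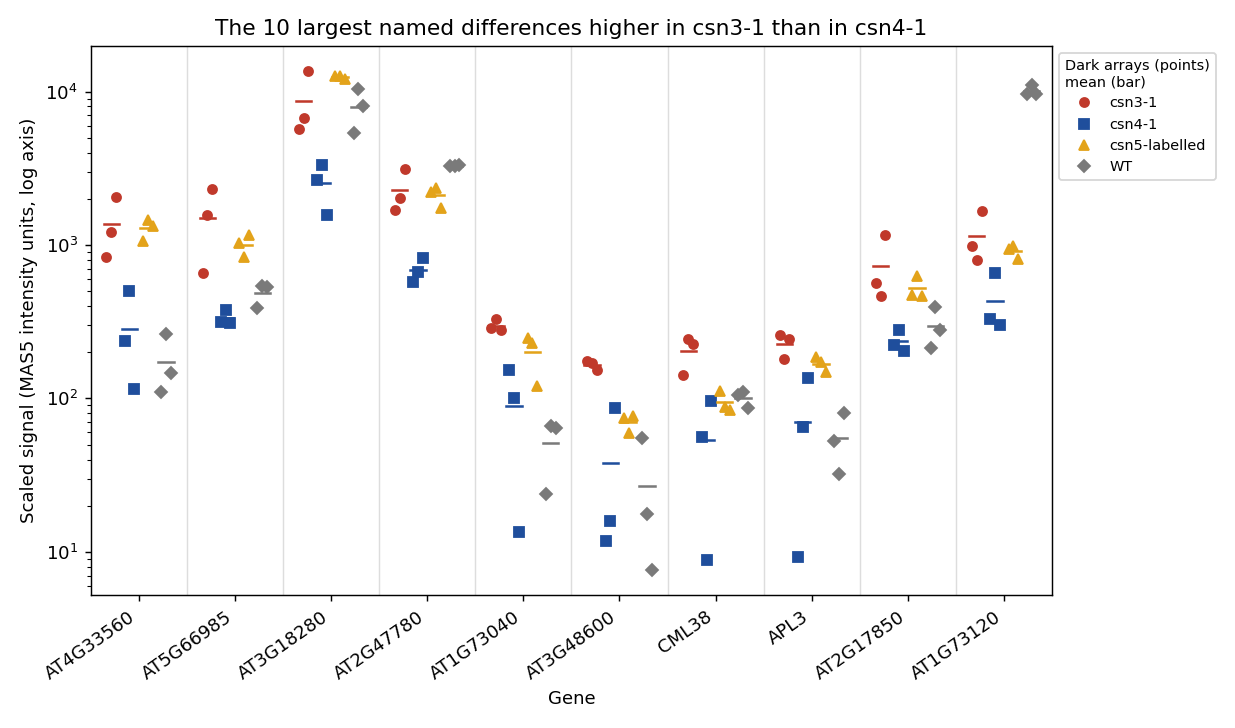
Scaled MAS5 signals (vertical log axis) of the 10 named genes with the largest differences higher in csn3-1, 3 points per group for the dark arrays of csn3-1, csn4-1, the csn5-labelled line and WT, drawn left to right as arrays 1, 2 and 3 (1, 2 and 1b for csn3-1), with a bar at each mean. Every csn3-1 point lies above every csn4-1 point of the same gene, and the third csn3-1 point (1b) is the highest for AT4G33560, AT5G66985, AT3G18280, AT2G47780, AT2G17850 and AT1G73120.

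The order of arrays repeated across the higher members. Array 1b was the highest csn3-1 array for 27 of the 43 higher members and array 1 the lowest for 25. Replicate 3 was the lowest csn4-1 array for 27 of the 43. Among the 41 lower members, array 1b was the highest csn3-1 array for 20 and array 1 the lowest for 18. Replicate 3 was the highest csn4-1 array for 18 of the 41. Array 1b and csn4-1 replicate 3 also had the lowest and highest median signals of the 6. The part of the array medians in the differences was not tested.

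Among transcripts lower in csn3-1, many were dim, and in 12 of the 41 all 3 csn3-1 arrays were under a signal of 100. AT1G12080 gave 40.1, 67.8 and 17.2 in csn3-1 arrays 1, 2 and 1b and 170, 453 and 270 in csn4-1 arrays 1, 2 and 3, the largest named difference at -1.88 ± 0.32 (limma adjusted p = 0.00349). In WT dark arrays it was between 5220 and 9282, so that both lines were far below WT and csn3-1 lay lowest. SIS, a salt-induced serine-rich protein, showed the same order of groups. Arrays of csn3-1 gave 121, 226 and 113, those of csn4-1 289, 744 and 659, and those of WT 9688 to 13658, with a log2 difference between the lines of -1.54 ± 0.34 (limma adjusted p = 0.0255). AT3G05150, of the sugar transporter family, gave 5.4, 17 and 7.2 in csn3-1, 65.4, 177 and 124 in csn4-1 and 376 to 387 in WT, with a difference of -1.47 ± 0.33. For PRA1.F1, a prenylated Rab acceptor of vesicle traffic, the values were 2.6, 16.3 and 5.9 against 64.7, 135 and 220, with 277 to 566 in WT and a difference of -1.63 ± 0.33. In these 4 genes the csn4-1 arrays stood between csn3-1 and WT. SIS and AT3G05150 did not pass without array 1b (log2 differences of -1.41 and -1.44) or without csn4-1 replicate 3 (-1.40 and -1.44), and PRA1.F1 did not without the latter (-1.33).

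Other transcripts lower in csn3-1 were above WT in csn4-1. STOMAGEN, a secreted peptide made in the mesophyll that promotes stomata, had signals of 616, 636 and 646 in csn3-1 and 1367, 1216 and 1783 in csn4-1, a log2 difference of -1.12 ± 0.26 (limma adjusted p = 0.0328). WT dark arrays (466 to 715) overlapped csn3-1, and csn5-labelled dark arrays (655 to 969) lay between the lines. SPCH and FMA, transcription factors that mark the stomatal lineage, did not pass. Their log2 differences were -0.33 and -0.26, and their summed signal was 75, 407 and 96 in csn3-1 and 312, 176 and 178 in csn4-1, which overlapped. AT3G26922, of the F-box family, gave 16.3, 21 and 51.2 against 212, 116 and 108, a difference of -1.28 ± 0.31. AT5G38360 gave 107, 28 and 89.4 against 193, 238 and 238, a difference of -1.19 ± 0.28. AT2G29290, of the tropinone reductase-like family, was lower by a log2 difference of -1.07 ± 0.21. STOMAGEN did not pass without array 1b (-1.14, limma adjusted p = 0.0688) or without csn4-1 replicate 3 (-0.97, limma adjusted p = 0.143), nor did AT5G38360 (-1.30 and -1.15), and AT3G26922 did not without the latter (-1.42).

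AT5G04310, a pectate lyase of the cell wall, gave 70.3, 50.9 and 58.5 in csn3-1 and 199, 202 and 212 in csn4-1, a log2 difference of -1.22 ± 0.27. The csn4-1 arrays of that gene lay close to the lowest WT dark array (212). AT2G17110 gave 78.4, 33.1 and 22.9 against 155, 139 and 192, a difference of -1.20 ± 0.28. AT5G39580, a class III peroxidase, was lower by a log2 difference of -1.09 ± 0.24 and AT5G02550 by one of -1.03 ± 0.22. AAH, allantoate amidohydrolase of purine breakdown, had a difference of -1.005 ± 0.23 and was named after its value was seen. AT5G04310, AT2G17110, AT5G02550 and AAH did not pass without array 1b, with log2 differences from -1.21 (AT5G04310) to -0.79 (AAH), or without csn4-1 replicate 3, with -1.19 (AT5G04310) to -0.94 (AAH).

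**Figure D3:**
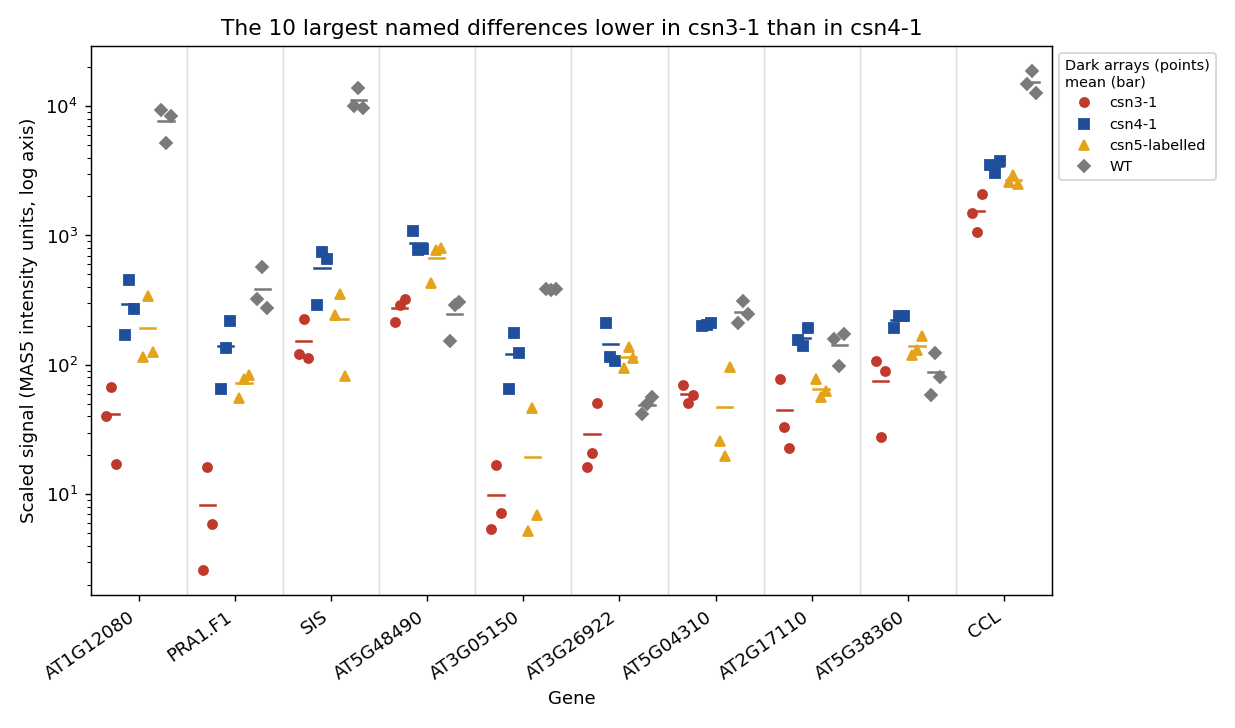
Scaled MAS5 signals (vertical log axis) of the 10 named genes with the largest differences lower in csn3-1, 3 points per group for the dark arrays of csn3-1, csn4-1, the csn5-labelled line and WT, drawn left to right as arrays 1, 2 and 3 (1, 2 and 1b for csn3-1), with a bar at each mean. Every csn3-1 point lies below every csn4-1 point, and WT is above both lines for AT1G12080, PRA1.F1, SIS, AT3G05150 and CCL.

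Of the photosynthesis genes, LHCB4.2, a minor antenna protein of photosystem II, was lower in csn3-1. It gave 658, 711 and 1385 in csn3-1 and 1663, 2038 and 2107 in csn4-1, a log2 difference of -1.11 ± 0.22 (limma adjusted p = 0.0103), with 7417 to 9325 in WT dark arrays. CCL, a short-lived transcript under clock control, gave 1501, 1059 and 2079 against 3502, 3030 and 3747, a log2 difference of -1.17 ± 0.21 (limma adjusted p = 0.00843). In the list of 8 tested photosynthesis genes 1 was called lower, 0 higher and 7 did not pass, with a median of -0.38. PSAE-1, a subunit of photosystem I, had -0.53 ± 0.17 (limma adjusted p = 0.138) and LHCB4.1, a close relative of LHCB4.2, -0.45 ± 0.21. The 2 members above 0 were LHCB4.3, with 0.27 ± 0.23, and PRK, with 0.09 ± 0.22. The summed signal of the 8 genes was 33969, 32564 and 57630 in csn3-1 arrays 1, 2 and 1b and 58003, 43463 and 52778 in csn4-1. Arrays 1 and 2 of csn3-1 were thus low and 1b lay within the csn4-1 range, and the call of LHCB4.2 was lost without csn3-1 array 1, without csn3-1 array 2 and without csn4-1 replicate 3 (-1.04). None of the 5 tested chlorophyll synthesis genes passed, with a median of -0.33, and CHLM, a methyltransferase of that pathway, had -0.55 ± 0.17 (limma adjusted p = 0.135).

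Other lists gave 0 calls in either direction. Flavonoid and anthocyanin synthesis (5 tested) had a median log2 difference of 0.26, auxin response (5) of -0.30 and cell expansion (4) of -0.40. The leading members were AT4G14090, an anthocyanin glucosyltransferase, with 0.73 ± 0.28, GH3.3, an auxin-conjugating enzyme, with -0.97 ± 0.31, and XTH19, a xyloglucan-modifying enzyme, with -1.02 ± 0.32. Their limma adjusted p-values were 0.225, 0.134 and 0.134. Carbon starvation and autophagy (8) had a median of 0.03, drought, cold and abscisic acid (4) of 0.15, and G2 and M phase (4) of -0.12. COR15A, a cold-induced chloroplast protein, had 1.05 ± 0.32 (limma adjusted p = 0.127) and AUR3, an Aurora kinase of mitosis, -0.88 ± 0.25 (limma adjusted p = 0.0959). The 5 root markers had a median of -0.04, with log2 differences from -0.90 to 0.84. Their summed signal was 6542 to 7310 in csn3-1 and 4699 to 7020 in csn4-1, which overlapped. Most of that sum was PYK10, at 5963 to 6596 in csn3-1 and 4253 to 6344 in csn4-1, so it says little of the other markers. Of the oxidative stress list, AT2G21640, a marker of oxidative stress, had an adjusted p of 0.0442 by limma with a log2 difference of 0.78 ± 0.19, under the size required. In the families matched by gene symbol, synonym or locus pattern, LHCB4.2 was the only member called. This match misses genes listed under a locus that no pattern caught, among them AT3G05730, AT4G01700, AT5G39580, AT1G73040 and AT3G05150 above. The matched families without a call included 41 UDP-glycosyltransferases (median 0.05), 16 expansins (-0.12), 15 cytochromes P450 (-0.22), 11 glutathione S-transferases (0.20) and 9 defensins and thionins (-0.28). CUL4, a cullin, and RPN12a, a proteasome subunit, each the 1 gene tested of its list, had log2 differences of 0.11 ± 0.18 and 0.07 ± 0.18.

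The largest difference of all was that of an unnamed probe set. 250188_at gave 4532, 2585 and 2203 in csn3-1 arrays 1, 2 and 1b and 402, 427 and 628 in csn4-1 arrays 1, 2 and 3, a log2 difference of 2.51 ± 0.24 (limma adjusted p = 8.48e-07). WT dark arrays (463 to 664) and csn5-labelled dark arrays (457 to 581) lay with csn4-1, so that csn3-1 alone was high, and the probe set was called in each of the 40 alternative fits. 264953_at gave 3450, 5053 and 10293 against 1260, 1592 and 620, a difference of 2.33 ± 0.38. Furthest below csn4-1 was 245325_at, with 228, 493 and 419 against 861, 1386 and 3209 and a difference of -1.97 ± 0.37, while WT dark arrays were at 13751 to 16371.

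The same pair of lines was then read in light. In the deposit, the csn4-1 and WT light samples are numbered apart from all other groups, csn3-1 light among them. Line and deposit group therefore cannot be told apart in light, and the interaction below takes in the same difference. The light arrays are other samples, but they entered the shared estimate of spread and the filter, and without csn4-1 light replicate 2 or 3 the count in darkness was 125 or 119. Only 4 probe sets were called there (0.0213%), 3 higher and 1 lower in csn3-1, with 1829 at an unadjusted p under 0.05. Of these, 2 were also called in darkness. 250188_at gave 2716, 2234 and 2220 in csn3-1 light arrays and 567, 314 and 662 in csn4-1 light arrays, a log2 difference of 2.16 ± 0.24 (limma adjusted p = 2.02e-05). AT5G48490, of the lipid-transfer family, gave 181, 97.7 and 246 against 508, 1487 and 442, a difference of -1.79 ± 0.32 (limma adjusted p = 0.0255). Both thus differed in the same direction in light and in darkness. AT2G16630, named because the count is small, was higher by 1.07 ± 0.17 in light and by 0.88 ± 0.17 in darkness, and the fourth probe set is unnamed here. The count in light was 191 without csn4-1 light replicate 3, 9 without replicate 1 and 1 without replicate 2, and without csn3-1 light replicates 1 and 2 it was 2 and 1. Correlations within csn4-1 light ran from 0.884 to 0.940, the lower ones those of replicate 2, whose 3' to 5' GAPDH ratio was 130.1 against 11.7 and 6.49 in replicates 1 and 3. Without replicate 2 the light difference of AT5G48490 was -1.28 (limma adjusted p = 0.21) and that of AT2G16630 was 1.01 (limma adjusted p = 0.107), and the part of that ratio was not tested.

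Most members leaned the same way in light without passing the test. Of the 43 higher in darkness, 41 had a log2 difference above 0 in light, with a median of 0.53, whereas 44.5% of all probe sets were above 0 and their median was -0.04. In 17 of the 43 the 3 csn3-1 light arrays lay above the 3 csn4-1 light arrays, as in 5.5% of all probe sets. Of the 41 lower members, 32 were below 0 in light, with a median of -0.28, and 9 had csn3-1 light arrays wholly below csn4-1, as in 6.99% of all. AT4G33560 gave 1366, 1460 and 1679 in csn3-1 light arrays and 1211, 1062 and 537 in csn4-1 light arrays, a difference of 0.72 ± 0.35. AT3G18280 gave 11061, 10225 and 10683 against 6834, 4390 and 6193, a difference of 0.89 ± 0.27, and AT2G47780 gave 777, 1076 and 780 against 524, 363 and 435, a difference of 0.92 ± 0.21. The light groups did not overlap for these 3 genes, and none passed after adjustment. STOMAGEN, at 381, 335 and 526 against 779, 1567 and 480, overlapped. LHCB4.2 had a light difference of 0.10 ± 0.22.

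The test of the difference between darkness and light, an interaction term in the same fit, called 1 probe set (0.00533%), the unnamed 253971_at, and 1149 had an unadjusted p under 0.05. The log2 difference of 253971_at was -1.62 ± 0.19 in darkness and 0.21 ± 0.19 in light. For the other 83 members the interaction did not pass, so their dark differences were not shown to differ from those in light.

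**Figure D4:**
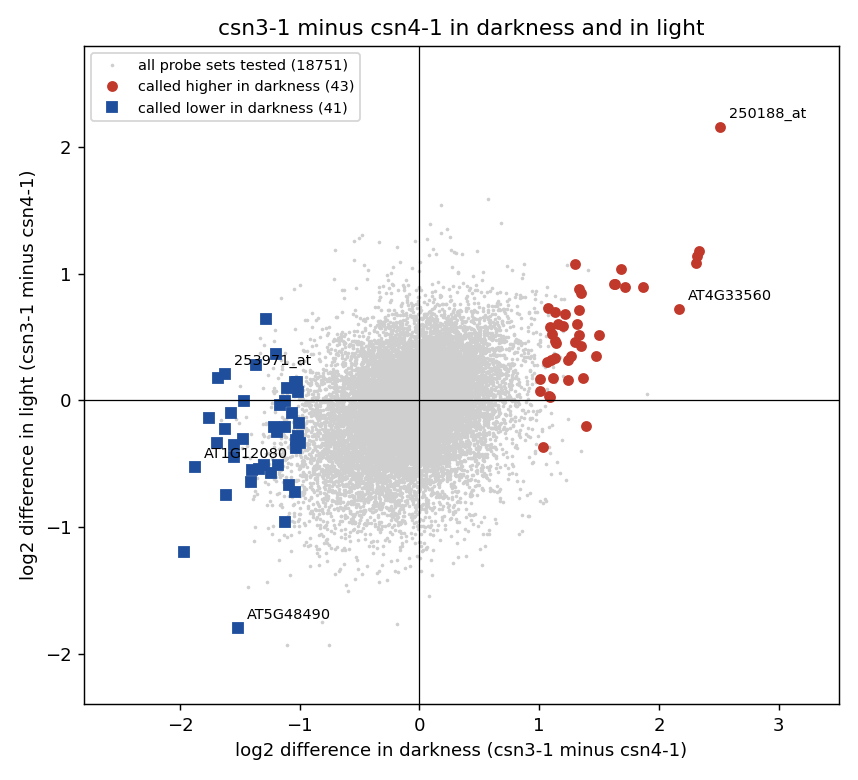
Log2 difference between csn3-1 and csn4-1 in darkness (horizontal) and in light (vertical) for all 18751 probe sets tested (grey), the 43 called higher (red circles) and the 41 called lower (blue squares) in darkness. The red points lie above 0 in light for 41 of 43, the blue points below 0 for 32 of 41, and 250188_at and AT5G48490 were called in both conditions.

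The csn5-labelled and WT arrays place the differing transcripts. Over the 43 higher members the csn5-labelled dark mean was nearer to csn3-1 than to csn4-1 in 36, and over the 41 lower members in 22, where 60.5% of all probe sets were nearer to csn3-1. Against WT in darkness, a contrast that shares no array with the pair, the csn5-labelled line had a median log2 difference of 1.08 over the higher members (33 of 43 above 0) and of -1.59 over the lower members (28 of 41 below 0). Over all 18751 probe sets that median was 0.07, with 54.1% above 0 and 8612 below 0. The WT dark mean lay below both lines in 22 of the 43 higher members, above both in 7 and between them in 14. For the lower members it lay above both in 25 of 41, below both in 8 and between in 8. Over all probe sets it lay below both in 53.5%, above both in 34.1% and between in 12.4%, so that the count below both among the higher members is near the background.

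How many transcripts were called depended on single arrays. Without csn4-1 replicate 3, 53 probe sets were called, 32 of them among the 84, and without csn3-1 array 1b, 70 were called, 46 of them among the 84. Without both, 53 were called and 19 were among the 84. No member changed sign in any of the 40 alternative fits that tested it. The call held without each of the 6 arrays in turn for 20 members, 15 higher and 5 lower. Of the 45 named members, 28 did not pass without array 1b and 32 did not without csn4-1 replicate 3, and 9 passed in both fits. Other arrays of the 6 also cost calls. CCL did not pass without csn3-1 array 2, nor AT2G29290 without csn3-1 array 1. AT5G48490 did not pass without csn3-1 array 1 or csn4-1 replicate 1. AT5G39580 did not without csn3-1 array 1, csn3-1 array 2 or csn4-1 replicate 2. STOMAGEN and AT2G10940 each passed in 1 of the 6 fits. The named members among the 20 were AT4G33560, AT5G66985, AT3G18280 and AT2G47780 among the higher and AT1G12080 among the lower. In a fit of the 6 arrays alone 10 probe sets were called, 9 of them among the 84, including AT2G47780 and AT5G48490.

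**Figure D5:**
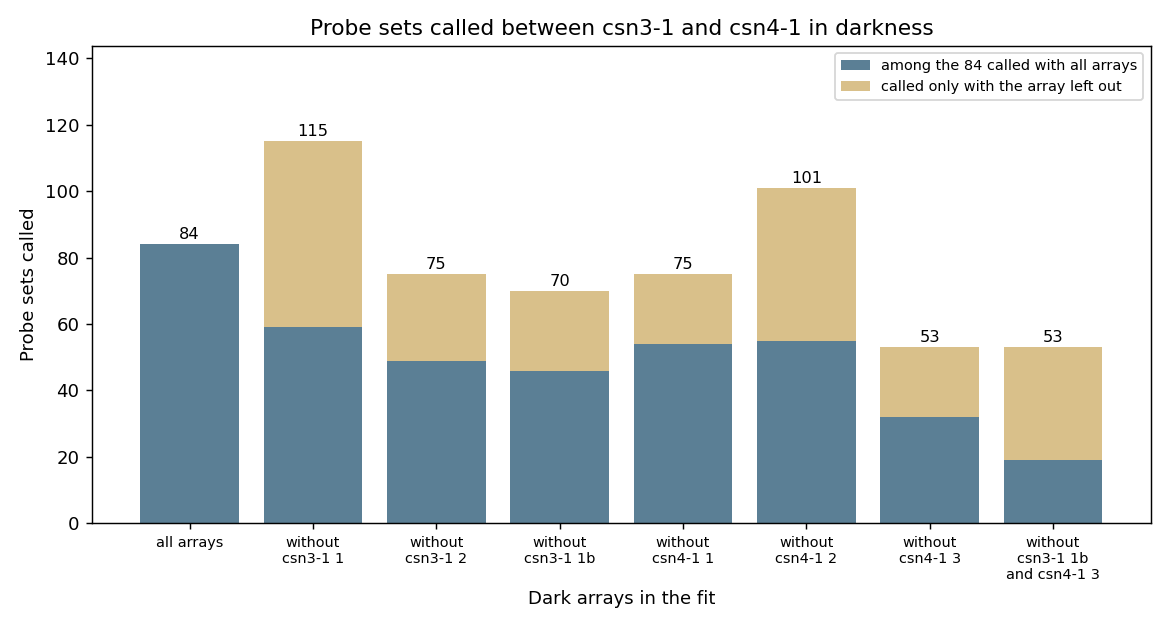
Number of probe sets called between csn3-1 and csn4-1 in darkness (vertical axis, from 0) with all arrays and with 1 or both of the named dark arrays left out. The blue part counts probe sets among the 84 called with all arrays, from 59 without csn3-1 array 1 to 19 without csn3-1 array 1b and csn4-1 replicate 3, and the totals run from 53 to 115.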

How the data were processed

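The authors deposited 1 intensity (MAS5 signal) for each probe set and array, as the labels and the submitters' processing notes state. Its version is not given in the sources used here. Per the labels' protocols, about 6 µg of RNA was labelled per array. All 24 columns matched a sample. Intensities were multiplied to give every array a mean of 500 after trimming 2% at each end, which the deposited values already had to within 0.1. Then 50 was added before log2, and 64 control probe sets were left out. No scanner files or detection calls were used.

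A linear model with 1 mean for each of the 8 groups was fitted to all 24 arrays (limma 3.58.1 in R 4.3.3, lmFit and eBayes with an intensity trend), so the groups shared 1 estimate of the spread. Comparisons were contrasts, with p-values adjusted by the Benjamini-Hochberg method over 18751 probe sets, and errors of log2 differences are standard errors. An exact permutation test of 3 against 3 arrays cannot give a p under 0.1 and was not used. The script was tested on simulated data. The number of arrays limits the precision.

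Names came from the platform table, updated through a TAIR10.1 gene table; 13513 probe sets had 1 gene, of which 13436 matched the table, 503 had several and 8730 are unnamed here. No coordinates or sequences were used. The gene lists held 394 loci in 26 lists, 102 with a probe set of their own and 99 tested. A further 27 families were matched by gene symbol, synonym or locus pattern. The comparison, the lists and the families were chosen with earlier results of these data known, so no list is independent evidence. Named genes were the subunit genes, the 16 largest called differences in each direction with 1 gene, up to 4 members of a list or family by smallest p, and interaction calls. Other genes given were chosen after their values were seen, as were 3 unnamed probe sets with the largest differences. Alternatives were other scalings, offsets, filters, variance models, samples in the fit, covariates for control-probe ratios, a block for replicate number, and each array left out.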

Additional observations from a re-analysis of the deposited data

Results flagged for a closer look

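One probe set, 253971_at, differed between the lines in darkness and not in the same way in light. The dark difference minus the light difference, csn3-1 minus csn4-1, was -1.83 on the log2 scale (limma adjusted p for the interaction = 0.0064). In darkness its signal was 704, 656 and 854 in csn3-1 arrays 1, 2 and 1b and 2808, 1674 and 2811 in csn4-1 arrays 1, 2 and 3. In light it was 743, 773 and 911 in csn3-1 and 824, 533 and 746 in csn4-1. The csn4-1 dark arrays were thus high and the other 3 groups of these lines lay together. The csn5-labelled dark arrays gave 943, 855 and 733, and the WT arrays 10.5, 6.9 and 3.7 in darkness and 1107, 1406 and 1309 in light. The gene is unnamed here. The interaction was not called without csn3-1 light replicate 3, csn4-1 dark replicate 1 or csn4-1 dark replicate 3, nor with median centring, and without csn3-1 dark array 1b there were 6 interaction calls.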

How the results depend on the processing

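For csn3-1 minus csn4-1 in darkness, 84 calls became 10 in a fit of the 6 arrays alone, 42 with the 12 dark arrays, 130 with quantile normalization, 28 with array weights, 156 with the actin ratio as covariate and 141 by adjusted p alone. Of 2 alternatives chosen after seeing the data, the GAPDH ratio gave 145 and leaving out csn3-1 array 1b and csn4-1 replicate 3 together gave 53. Leaving out 1 array gave 53 to 125. The split was 88 higher and 42 lower with quantile normalization, 70 and 20 with median centring, 40 and 58 without a filter, 38 and 55 without intensity trend, 19 and 9 with array weights and 61 and 95 with the actin ratio. Median centring moved the median of all differences from -0.06 to 0.06.

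In light, 4 calls became 2 with quantile normalization, 2 without intensity trend, 39 with array weights and 1 to 191 with 1 array left out. For the interaction, 1 became 3 with quantile normalization, 0 with median centring, 2 with the GAPDH ratio and 0 to 6 with 1 array left out. The 6 low-oxygen calls became 0 in the 6 arrays alone, 3 with array weights, 3 with the replicate block, 1 without both arrays named above and 2 to 9 with 1 array left out. The cause was not tested in any case. With replicate number as a block, 57 probe sets were called in darkness with array 1b as number 1 and 76 with it as number 3, and 5 in light. Deviations of same-numbered arrays correlated at -0.07, -0.15 and -0.19 (1b with 3), so the numbers were not taken to pair the samples. None of the 146 values of named genes changed direction under any alternative that tested it; 346 of their values under an alternative no longer passed and 23 newly did.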

Other observations

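Besides the 84 called probe sets, 57 passed the adjusted p with a log2 difference under 1 in size. Of these, 21 are listed with 1 gene, 11 higher and 10 lower in csn3-1, and the following were chosen after their values were seen. AT1G54220, a subunit of the mitochondrial pyruvate dehydrogenase complex, was higher by 0.98 ± 0.20 (limma adjusted p = 0.0134). AT1G62660, a vacuolar invertase that splits sucrose, was higher by 0.71 ± 0.14 and UBC30, a ubiquitin-conjugating enzyme, by 0.72 ± 0.17. Lower in csn3-1 were the cytosolic ribosomal protein genes AT3G02560 and AT5G23900, with log2 differences of -0.75 ± 0.18 and -0.73 ± 0.18. CYTC6A, a plastid cytochrome, had -0.76 ± 0.18 and CHC1, a component of a chromatin-remodelling complex, -0.97 ± 0.19. In light none of these genes passed, and the largest of their light differences was that of AT1G54220 at 0.54.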
